A study of Mus musculus with 16 samples.

Results

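Dcaf8 encodes a substrate receptor of the CUL4-DDB1 ubiquitin ligase, and its transcript was well below every control value in each liver in which Matr3 had been targeted. Described here are 9 genes of that ligase, among 23167 gene identifiers counted in both sexes. They are Dcaf8, the shared subunits Ddb1, Dda1, Cul4a and Cul4b, and some of the other receptors, Dcaf5, Dcaf6, Dcaf7 and Dcaf11. Dcaf8 was chosen by its measured counts, as the most consistently lowered gene in the knockout livers of both sexes, and the rest because their products work with it or in its place. Its fall is therefore a description of the values that chose it. No p-value of the fall is given, and its rank by p and its calls are part of that description. All 9 genes were detected in every library and passed the filter on low counts.

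The mice carried floxed alleles of Matr3, which encodes the nuclear RNA-binding protein matrin-3. In the knockout mice (LKO), Cre recombinase under the albumin promoter, which is active in hepatocytes, deleted Matr3 in the liver. The controls were floxed mice, littermates of the LKO mice per the labels' protocols. The groups were 4 male LKO, 4 male floxed, 4 female LKO and 4 female floxed mice, with 1 poly(A) library of each liver. All 16 mice ate a high-fat diet, with 60% of its energy from fat, from 7 weeks of age for 16 weeks, and were killed after a fast of 12 hours. No group on ordinary chow was analysed here.

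In this family of ligases a cullin, CUL4A or CUL4B, is the scaffold: 1 end holds the RING protein that brings in the ubiquitin-loaded enzyme, and the other holds the adaptor DDB1. DDB1 docks interchangeable receptors, the DCAF proteins, and each receptor picks its own substrates for ubiquitination. DDA1 is a small protein that binds DDB1 and steadies the complex. Attachment of NEDD8 to the cullin switches the ligase on, the COP9 signalosome removes NEDD8, and CAND1 helps receptors to be exchanged. In mouse liver, the ligase with DCAF8 has been described as acting on histone H3 and as favouring methylation at lysine 9 of that histone and the silencing of fetal liver genes.

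Dcaf8 (ENSMUSG00000026554) lies on the plus strand of mm10 at chr1:172148084-172197005, with 11 annotated transcripts. Its last exon shares 123 bases with Pea15a on the opposite strand, and reads from those bases could have been counted for either gene, because whether counting used strand is not given in the sources used here. A start region that RefSeq annotates (GRCm38.p6, chr1:172147765-172148064, plus strand, 250 bases before the start and 50 from it) is shown because Dcaf8 is the gene whose level moved. The window ends before the first base of the gene given above, since RefSeq places this start ahead of the GENCODE annotation. Capitals mark the only matches found among 6 motifs that were searched on both strands. They are the GC box GGGCGG, with 2 matches on the minus strand beginning at -54 and -9 from the start, and the core of the NRF1 motif, on the minus strand at -47.

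Dcaf8 start region: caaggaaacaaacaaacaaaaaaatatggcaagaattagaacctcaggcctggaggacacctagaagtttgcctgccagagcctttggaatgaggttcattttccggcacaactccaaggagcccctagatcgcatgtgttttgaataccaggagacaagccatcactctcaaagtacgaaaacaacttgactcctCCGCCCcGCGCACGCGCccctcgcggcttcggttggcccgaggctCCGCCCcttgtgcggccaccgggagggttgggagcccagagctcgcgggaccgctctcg

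This window was 56.7% G or C and held 19 CpG pairs, against medians of 52.7% and 7 over 32851 mouse start regions of the same length. The NRF1 core occurred in 4.60% of those regions and the GC box in 35.7%. Of the 9 ligase genes, 2 had the NRF1 core (Dcaf8 and Dcaf11) and 6 had the GC box. The other motifs searched were the CCAAT box CCAAT (5 of 9 genes, 37.4% of all regions), the E-box CACGTG (1 of 9, 7.15%), the ETS core CCGGAAG (0 of 9, 8.86%) and the TATA box TATAAA (0 of 9, 13.6%). A match shows only that these letters are present.

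Each library had a total of 30495505 to 36496193 counts over all genes. Levels are given as CPM, counts scaled to the library total with TMM factors over all 16 libraries. The sex and the count table coincide, so a difference between the sexes and a difference between the tables cannot be told apart. By their mouse numbers, male floxed 1 and 2 stand away from the other animals, and the labels do not tie these 2 to the litters of the others. Calls that were lost without these 2 mice together are given with that value. Matr3 itself was lower in every LKO library: it measured 33.9, 36.9, 36.6 and 34.2 CPM in male LKO 5 to 8, against 55.8, 53.6, 61.6 and 60.0 CPM in male floxed 1 to 4. In females it measured 39.8, 36.6, 37.6 and 38.3 CPM in LKO 5 to 8, against 52.4, 64.0, 56.2 and 59.9 CPM in floxed 1 to 4. The LKO means were thus 61.3% of the floxed mean in males and 65.5% in females. Counts per gene do not separate deleted from retained exons, and liver cells that do not express the Cre transgene keep the gene.

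Dcaf8 fell to nearly the same level in both sexes. In males it measured 82.1, 75.7, 79.3 and 77.6 CPM in LKO 5 to 8, against 169.0, 187, 186 and 178 CPM in floxed 1 to 4. The means were 78.7 ± 2.72 CPM in male LKO and 180 ± 8.46 CPM in male floxed livers (SD, n = 4 each), a ratio of 43.7% and a log2 fold change of -1.20 (SE 0.06). The groups were separated by 86.9 CPM. In females Dcaf8 measured 72.4, 75.8, 71.6 and 73.4 CPM in LKO 5 to 8, against 175, 176, 168 and 157 CPM in floxed 1 to 4. The means were 73.3 ± 1.81 CPM in female LKO and 169 ± 8.58 CPM in female floxed livers (SD, n = 4 each), a ratio of 43.4% and a log2 fold change of -1.21 (SE 0.07). The gap between the female groups was 81.5 CPM. No LKO library of either sex came near any floxed library, and within each LKO group the 4 livers lay close together.

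**Figure D1:**
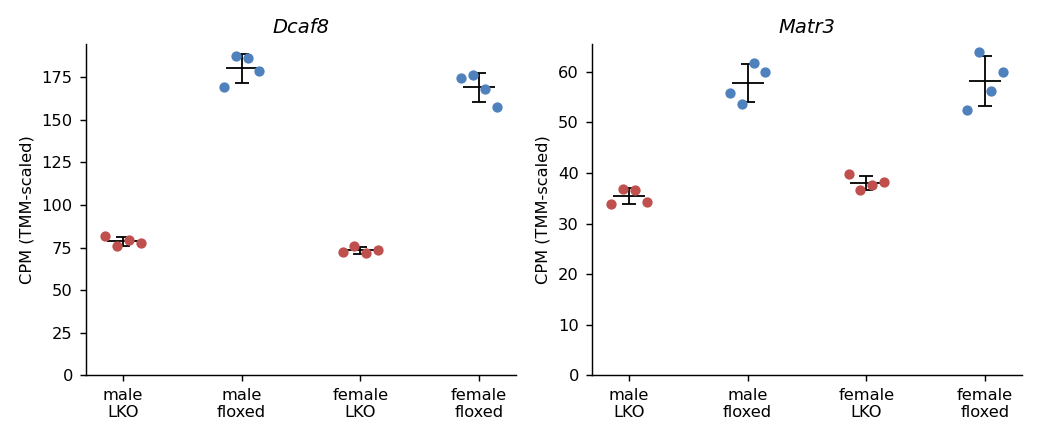
Dcaf8 and Matr3 levels in CPM in each library (points) of male LKO, male floxed, female LKO and female floxed livers, with the mean and SD of each group (n = 4). All 8 LKO livers lie between 71.6 and 82.1 CPM of Dcaf8, and all 8 floxed livers lie between 157 and 187 CPM.

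Ranked by p, Dcaf8 came 1st of 15355 genes tested in males, 1st of 15432 in females and 1st of 16126 in the fit of all libraries, which is the consistency it was chosen for. It was not the gene with the deepest fall, since 44 genes fell further in males and 245 in females. Its standard errors of 0.06 and 0.07 stood beside medians over all genes of 0.12 in males and 0.14 in females. The female minus male difference of its LKO effects was -0.01 (SE 0.08), a value that the choice of a consistently lowered gene partly fixes. In floxed livers alone, a contrast the choice did not use, Dcaf8 was at 169 ± 8.58 CPM in females and 180 ± 8.46 CPM in males (SD, n = 4 each; exact permutation p = 0.114, two-sided), and the groups overlapped.

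RNA was taken from whole liver, where fewer cells of a type and less RNA per cell cannot be told apart. Of 48 marker genes of 9 liver and blood cell types tested, 0 were called in LKO males at an edgeR adjusted p under 0.05, with 2 at an unadjusted p under 0.05, 1 called by DESeq2 and 0 by limma-voom. Beside 9.29% of all genes, 4.44% higher and 4.85% lower, 12 of 49 markers were called in LKO females, 2 higher and 10 lower. Those lower included 5 of 7 markers of sinusoidal endothelium, whose summed level was 131 to 171 CPM in LKO females and 194 to 208 CPM in floxed females. The hepatocyte list had 2 higher and 2 lower of 7, and the share of all counts taken by albumin was 1.69 to 3.02% in LKO females and 4.45 to 5.12% in floxed females. The summed hepatocyte markers did not overlap in females, at 31450 to 48550 CPM in LKO and 55800 to 64820 CPM in floxed livers. Neither did the summed stellate cell markers, at 315 to 342 CPM in LKO and 343 to 421 CPM in floxed females. In males the summed adipocyte markers did not overlap, at 31.2 to 66.6 CPM in LKO and 9.67 to 26.2 CPM in floxed livers, with 1 gene of that list past the filter on low counts. The sums of the other 8 lists overlapped between the male groups, that of the hepatocyte markers at 66640 to 76170 CPM in LKO and 60840 to 78800 CPM in floxed livers. The part of these shifts in the values of the ligase genes was not tested in either sex.

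Of the 9 ligase genes, 1 was called in males (Dcaf8, lower), beside 1.04% of all genes, 0.528% higher and 0.514% lower. In females 2 were called (Dcaf8 and Cul4b, both lower), beside 9.29% of all genes, 4.44% higher and 4.85% lower. Since the genes were chosen with this contrast known, nothing is read from these counts. Counting instead genes whose groups did not overlap, 1 was higher (Cul4a) and 1 lower (Dcaf8) in males, where 3.92% and 4.14% of all genes did so. In females 0 were higher and 3 lower (Dcaf8, Cul4a and Cul4b), beside 8.04% and 7.91% of all genes.

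Cul4a, the more abundant of the scaffold transcripts, went opposite ways in the sexes. In males it measured 151, 168, 160 and 155 CPM in LKO 5 to 8, against 132, 141, 146 and 146 CPM in floxed 1 to 4. In females it measured 110, 114, 129 and 119 CPM in LKO 5 to 8, against 147, 139, 139 and 133 CPM in floxed 1 to 4. Every male LKO liver was above every male floxed liver, and every female LKO liver was below every female floxed liver. The log2 fold change was 0.16 (SE 0.06) in males and -0.24 (SE 0.08) in females. The difference of the effects was -0.40 (SE 0.09, edgeR adjusted p = 0.0196), and it was called without any 1 library, with adjusted p between 0.00538 and 0.0441. The 9 genes were chosen with the LKO effects of both sexes known, so this test is not independent of that choice. Without male floxed 1 and 2 together the difference was -0.36 and was not called (edgeR adjusted p = 0.0960). Of the 9 genes, Cul4a was the 1 called for this difference, where 4.42% of all genes were called, 1.97% higher and 2.45% lower in females. Floxed females and floxed males overlapped, at 139.5 ± 5.66 and 141 ± 6.61 CPM (SD, n = 4 each).

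Cul4b, the X-linked scaffold, was lower by about the same amount in both sexes. It measured 18.4, 22.9, 18.5 and 18.4 CPM in male LKO 5 to 8, against 22.8, 26.7, 25.4 and 23.5 CPM in male floxed 1 to 4. In females it measured 19.3, 18.6, 19.3 and 17.8 CPM in LKO 5 to 8, against 21.3, 24.7, 23.3 and 24.6 CPM in floxed 1 to 4. The male groups overlapped through male LKO 6 alone, by 0.100 CPM, and the female groups did not overlap. The log2 fold change was -0.33 in each sex (SE 0.09 in males, 0.08 in females), and the difference of the effects was 0.01 (SE 0.12, edgeR adjusted p = 0.978).

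**Figure D2:**
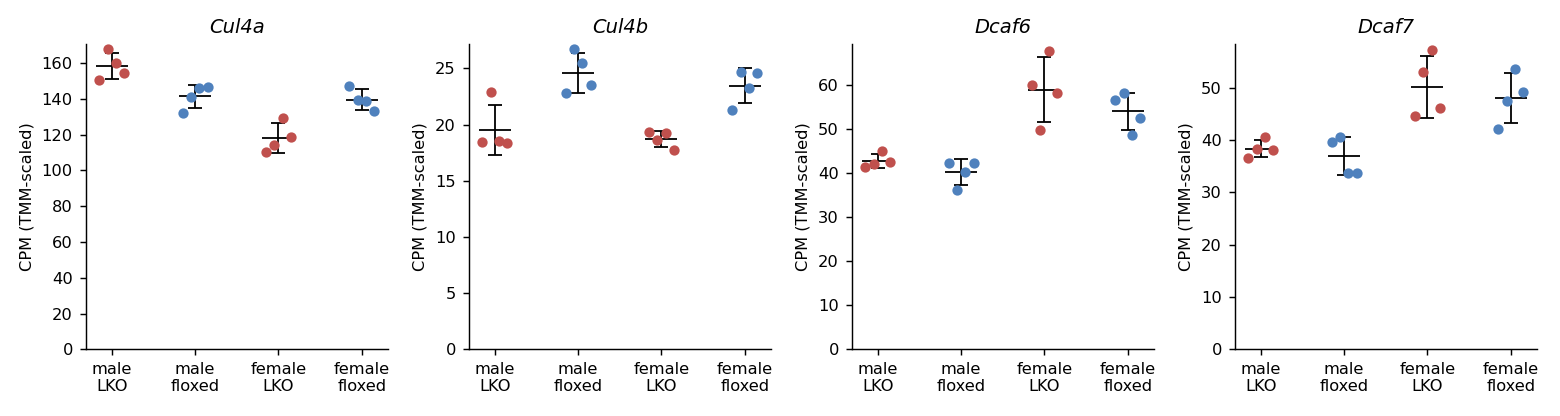
Levels in CPM of the scaffold genes Cul4a and Cul4b and of the receptor genes Dcaf6 and Dcaf7 in each library (points), with the mean and SD of each group (n = 4). Cul4a is higher in LKO males and lower in LKO females than in floxed mice of the same sex, Cul4b is lower in LKO means of both sexes, and Dcaf6 and Dcaf7 separate female from male livers.

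Ddb1, the adaptor, averaged 225 ± 14.4 CPM in male LKO and 198 ± 12.1 CPM in male floxed livers, and 228 ± 17.0 CPM in female LKO and 214 ± 6.45 CPM in female floxed livers (SD, n = 4 each). Its log2 fold change was 0.19 (SE 0.07) in males and 0.09 (SE 0.08) in females, and the groups overlapped in both. Dda1, its small partner, averaged 17.9 ± 0.794 CPM in male LKO and 18.1 ± 1.03 CPM in male floxed livers, a log2 fold change of -0.01 (SE 0.07). In females it averaged 21.4 ± 2.46 CPM in LKO and 18.4 ± 0.593 CPM in floxed livers, a log2 fold change of 0.22 (SE 0.09). LKO females 5 and 8, at 23.3 and 23.8 CPM, stood above LKO females 6 and 7, at 19.8 and 18.9 CPM, and the lowest of these was below the highest floxed value of 19.2 CPM. Ddb1 shares 328 exonic bases with Tkfc and Dda1 shares 80 with Ano8, both on the opposite strand.

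The other 4 receptors among the 9 genes showed no fall like that of Dcaf8. Dcaf5, described in human cells in the quality control of chromatin remodelling complexes, had a log2 fold change of 0.00 (SE 0.08) in males and 0.07 (SE 0.08) in females. Dcaf6, a coactivator of steroid receptors in human cells, had 0.09 (SE 0.07) and 0.12 (SE 0.10), and Dcaf7, a binding partner of DYRK kinases, had 0.05 (SE 0.08) and 0.06 (SE 0.10). Dcaf11, whose human product can direct the stress regulator NRF2 to destruction, had -0.10 (SE 0.07) in males and -0.29 (SE 0.12) in females. The LKO and floxed groups overlapped for all 4 of these genes in both sexes. Dcaf11 shares 401 exonic bases with A730061H03Rik and 179 with Gm15932, and Dcaf7 shares 96 with Gm11646, all on the opposite strand.

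**Figure D3:**
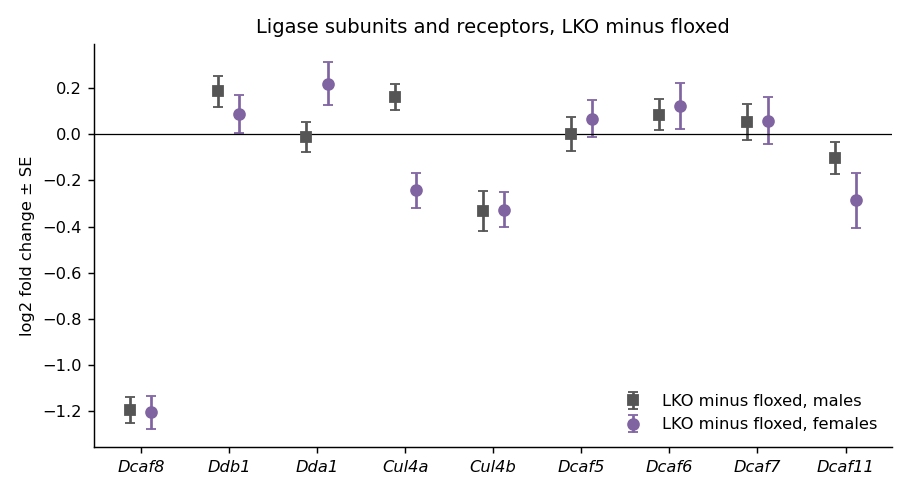
Log2 fold change, LKO minus floxed, of the 9 ligase genes with standard errors, for males (squares) and females (circles). Dcaf8 lies at -1.20 in males and -1.21 in females, and the other 8 genes lie between -0.33 and 0.22.

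The receptors dock on the same adaptor. The share of receptor counts that came from Dcaf8 was computed over the 5 receptor genes described here, without the 22 other receptors tested below. Dcaf8 made up 16.5, 15.5, 14.7 and 15.2% of these counts in male LKO 5 to 8, against 27.2, 30.2, 27.7 and 29.5% in male floxed 1 to 4. In females it made up 14.6, 16.0, 12.6 and 15.4% in LKO 5 to 8, against 25.9, 25.6, 25.4 and 27.4% in floxed 1 to 4. The summed level of the other 4 receptors was 430 ± 21.8 CPM in male LKO and 449 ± 27.2 CPM in male floxed livers, and 430 ± 45.6 CPM in female LKO and 481 ± 42.7 CPM in female floxed livers (SD, n = 4 each). Most of that sum came from Dcaf11, which averaged 309 ± 16.0 CPM in male LKO and 332 ± 27.9 CPM in male floxed livers, and 276 ± 34.6 CPM in female LKO and 336 ± 42.1 CPM in female floxed livers. These shares are of counts, with no adjustment for the length of the transcripts. They say nothing of protein and repeat the fall that chose Dcaf8.

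Per kilobase of annotated exon, Dcaf11, Ddb1 and Cul4a held the first 3 places in all 4 groups. Dcaf8 was 4th in both floxed groups, at 13.9 ± 0.651 CPM per kb in males and 13.0 ± 0.660 CPM per kb in females, with no overlap with the genes next to it in the order. In LKO livers it was 8th of 9, at 6.05 ± 0.209 CPM per kb in males and 5.64 ± 0.139 CPM per kb in females. In LKO males it overlapped Dcaf7 above it and Cul4b below it, and in LKO females it overlapped neither. This order rests on the length used, since all exons of Dcaf8 joined span 12996 bases and its longest coding transcript spans 4656. On that second length, chosen after the data were seen, Dcaf8 was 3rd in floxed males and 4th in floxed females, where it overlapped Cul4a, and 4th in both LKO groups. A gene's fold change does not depend on its length.

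The sexes were then compared in floxed mice, where the 9 genes had not been chosen for their values. In this contrast 2 of 9 were called, Dcaf6 and Dcaf7, both higher in females, beside 22.9% of all genes, 11.3% higher and 11.6% lower. Dcaf6 measured 56.7, 58.3, 48.8 and 52.6 CPM in female floxed 1 to 4, against 42.3, 36.3, 40.3 and 42.5 CPM in male floxed 1 to 4. Its log2 difference was 0.42 (SE 0.09, edgeR adjusted p = 0.00235), and the exact permutation test gave p = 0.0286 (two-sided), the smallest that 70 regroupings of 4 and 4 allow. Dcaf7 measured 42.1, 47.4, 53.6 and 49.2 CPM in female floxed 1 to 4, against 39.6, 40.6, 33.7 and 33.8 CPM in male floxed 1 to 4. Its log2 difference was 0.38 (SE 0.09, edgeR adjusted p = 0.00788; exact permutation p = 0.0286, two-sided). Every floxed female was above every floxed male for both genes, as was so for 11.6% of all genes, while 12.5% had every floxed female lower. Summed Kupffer cell and monocyte markers were at 564 to 861 CPM in floxed females and 196 to 301 CPM in floxed males. Neutrophil markers were at 11.35 to 72.3 and 5.24 to 9.84 CPM, and adipocyte markers at 0.123 to 5.45 and 9.67 to 26.2 CPM. The sums of the other marker lists overlapped. The part of these shifts in Dcaf6 and Dcaf7 was not tested.

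The LKO livers showed the same order of the sexes for Dcaf6 and Dcaf7. Dcaf6 averaged 59.0 ± 7.36 CPM in LKO females and 42.8 ± 1.60 CPM in LKO males, and Dcaf7 50.2 ± 5.94 CPM in LKO females and 38.4 ± 1.65 CPM in LKO males (SD, n = 4 each), again without overlap. Of 9 exact tests in floxed mice, these 2 reached 0.0286. Ddb1 was next, at 214 ± 6.45 CPM in floxed females and 198 ± 12.1 CPM in floxed males (SD, n = 4 each; exact permutation p = 0.0571, two-sided), with overlap. The exact p of the other 6 genes was between 0.114 and 0.943. Without adjustment for library composition, 4 of 9 genes did not overlap between floxed females and floxed males, instead of 2.

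The genes beside Dcaf8 on the chromosome were examined to see whether its fall extended to them. Predicted gene models were left out. Of 7 tested genes next to Dcaf8, 4 before and 3 after, 0 were called in either sex by edgeR, DESeq2 or limma-voom. At an unadjusted p under 0.05, edgeR gave 1 in males and 1 in females. Pex19, a peroxisome assembly gene, was the nearest of the 7 on the side before Dcaf8. It averaged 181 ± 2.54 CPM in male LKO and 161 ± 9.66 CPM in male floxed livers (SD, n = 4 each). Its log2 change was 0.17 (SE 0.06, edgeR adjusted p = 0.229). In females its log2 fold change was 0.06 (SE 0.10). Pea15a, a regulator of ERK signalling whose exon overlaps that of Dcaf8, had a log2 fold change of 0.13 (SE 0.14) in males and -0.13 (SE 0.14) in females.

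Further out, Copa, a coatomer subunit, had 0.12 (SE 0.08) in males and 0.15 (SE 0.11) in females, and Ncstn, a gamma-secretase subunit, had 0.05 (SE 0.06) and 0.06 (SE 0.07). Igsf8, an immunoglobulin-family membrane protein, had 0.10 (SE 0.11) and -0.30 (SE 0.20). The remaining neighbours, Vangl2 and Casq1, had group means of at most 0.594 CPM in males and 0.972 CPM in females, and larger errors. Of these Vangl2, a planar cell polarity protein, had a log2 change of -0.95 (SE 0.39, edgeR adjusted p = 0.150) in females.

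**Figure D4:**
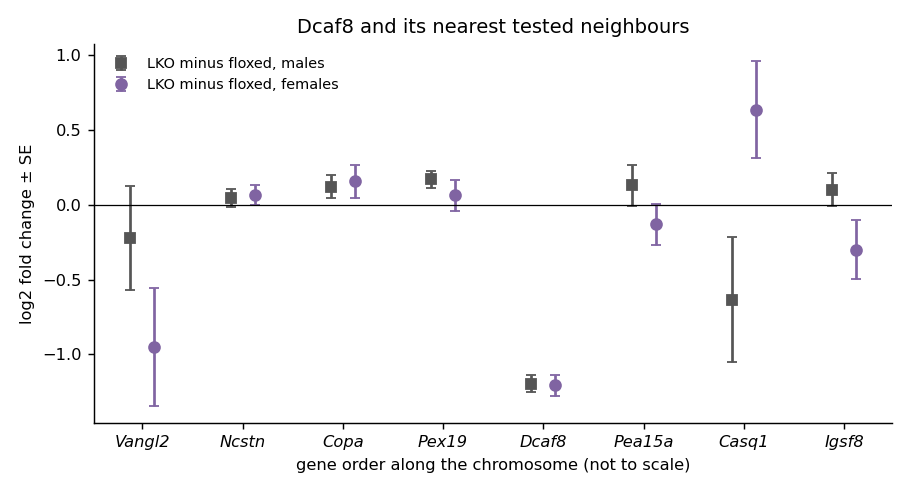
Log2 fold change, LKO minus floxed, with standard errors for Dcaf8 and 7 tested neighbours, 4 before and 3 after it, in chromosome order and not to scale, for males (squares) and females (circles). Dcaf8 stands at -1.20 and -1.21, and none of the 7 neighbours was called in either sex.

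Profiles over the 16 libraries were compared with that of Dcaf8 for 10936 genes, predicted gene models left out. The measure was the root mean square difference of log2 CPM centred on the mean of each sex. A gene with no variation would differ from Dcaf8 by 0.602, and the median gene differed by 0.624. Among the 5 most alike were Arsk (0.172), Asb3 (0.193), Nlrp6 (0.213) and Gprasp1 (0.230). Arsk, a lysosomal sulfatase, averaged 5.01 ± 0.381 CPM in male LKO and 9.20 ± 0.511 CPM in male floxed livers, and 4.14 ± 0.0662 CPM in female LKO and 8.40 ± 1.19 CPM in female floxed livers (SD, n = 4 each). Nlrp6, an innate immune sensor, was far more abundant, at 119 ± 7.89 CPM in male LKO and 217 ± 20.1 CPM in male floxed livers, and 137 ± 18.9 CPM in female LKO and 249 ± 34.4 CPM in female floxed livers. The likeness is a description, since a gene lowered in both sexes must resemble Dcaf8 on this measure.

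The wider machinery of these ligases, together with heterochromatin and fetal liver genes tied to the described role of DCAF8, was read from 7 gene lists. The lists were chosen with earlier results of these data known, so their shares called are a description. In LKO males 2 of 89 list genes were called, 2.25% beside 1.04% of all genes, both higher. In LKO females 8 of 88 were called, 9.09% beside 9.29%, 3 higher and 5 lower. These shares are not of ligase genes alone. The female calls included 3 heterochromatin genes and 2 fetal liver genes, and the male calls 1 fetal liver gene. Scaled by library totals, with no adjustment for composition, 2 list genes were higher and 10 lower in females, as the calls over all genes moved to 449 higher and 1240 lower with that scaling, against 685 and 748 otherwise. The share of list genes called in females was near the background.

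Of 22 other DDB1-CUL4 receptors, 1 was called in each sex. Det1, which with COP1 directs Jun to degradation in human cells, measured 13.5, 13.6, 12.7 and 13.1 CPM in male LKO 5 to 8, against 10.4, 8.80, 9.21 and 10.7 CPM in male floxed 1 to 4. All LKO males were above all floxed males, and the log2 fold change was 0.44 (SE 0.08, edgeR adjusted p = 0.0406). The call was lost without any 1 of 6 of the 8 male libraries (edgeR adjusted p up to 0.119), namely LKO 5 to 8 and floxed 2 and 3. The 16-library fit gave an edgeR adjusted p of 0.602, library totals 0.0593, and the omission of male floxed 1 and 2 together 0.0843. Crbn, the receptor bound by thalidomide, averaged 23.6 ± 1.77 CPM in female LKO and 29.1 ± 1.67 CPM in female floxed livers (SD, n = 4 each), a log2 change of -0.31 (SE 0.08, edgeR adjusted p = 0.0374). It lost its call without any 1 of 6 of the 8 female libraries (edgeR adjusted p up to 0.115), namely LKO 5, 6 and 8 and floxed 1 to 3, and with no filter on low counts (0.0588). Dtl, another receptor, averaged 0.272 ± 0.161 CPM in female LKO and 0.966 ± 0.569 CPM in female floxed livers (SD, n = 4 each). Its log2 change was -1.82 (SE 0.52, edgeR adjusted p = 0.0553), called by DESeq2 (adjusted p = 0.00904) and in the 16-library fit (0.0215). Dcaf12l1 (-0.67, SE 0.23, edgeR adjusted p = 0.0900) was called by DESeq2 (adjusted p = 0.0387) and in the 16-library fit (0.0206). Over the alternatives 0 to 6 receptors were called in females. The main fit had 12 of 22 positive in females. The median over the 22 receptors was -0.05 in males and 0.02 in females.

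The catalytic and regulatory parts of the ligase had few calls. Among 8 RING subunits and ubiquitin-conjugating enzymes, 0 were called in males, where Ube2d1 (-0.09, SE 0.09, edgeR adjusted p = 0.751) and Cdc34 (0.05, SE 0.05) had the smallest p. In females 1 was called, the conjugating enzyme Cdc34, at 71.4 ± 6.48 CPM in LKO and 54.5 ± 6.32 CPM in floxed livers (SD, n = 4 each), a log2 change of 0.39 (SE 0.10, edgeR adjusted p = 0.0434). Among 14 neddylation and exchange factors, 0 were called in males, where Glmn (-0.21, SE 0.12) and Dcun1d4 (-0.20, SE 0.13) had the smallest p. In females 1 was called, Dcun1d1, which promotes NEDD8 transfer to cullins. It averaged 44.2 ± 4.96 CPM in female LKO and 56.3 ± 4.33 CPM in female floxed livers (SD, n = 4 each), a log2 change of -0.35 (SE 0.09, edgeR adjusted p = 0.0447). Both calls were lost without any 1 of 6 female libraries, LKO 5, 6 and 8 and floxed 1 to 3, with edgeR adjusted p up to 0.122 for Cdc34 and 0.127 for Dcun1d1. Cdc34 was also lost with upper quartile scaling (0.0544) and library totals (0.0792), and Dcun1d1 with no filter on low counts (0.0540). In males neither list had a gene at an unadjusted p under 0.05 by edgeR, or a call by DESeq2 or limma-voom.

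None of 10 COP9 signalosome subunits and none of 6 other cullins was called in either sex by edgeR, DESeq2 or limma-voom. Some other settings gave calls in females. Cops6 was called in the 16-library fit (edgeR adjusted p = 0.0426). Cul9 was called with library totals (0.0441) and without female floxed 4 (0.0461), and Cul7 without female floxed 4 and female LKO 7 together (0.0475). At an unadjusted p under 0.05, edgeR gave 0 COP9 subunits in males and 2 in females, and 1 other cullin in males and 2 in females. The smallest p among COP9 subunits were those of Cops6 (0.25, SE 0.09, edgeR adjusted p = 0.117) and Cops7b (-0.29, SE 0.12, edgeR adjusted p = 0.141) in females, and of Cops5 (0.12, SE 0.07) and Cops7a (0.11, SE 0.07) in males, as log2 fold changes. Cul9 was at -0.30 (SE 0.10, edgeR adjusted p = 0.199) in males and -0.32 (SE 0.12, edgeR adjusted p = 0.104) in females, and Cul1 at -0.06 (SE 0.06) and 0.22 (SE 0.09, edgeR adjusted p = 0.160).

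**Figure D5:**
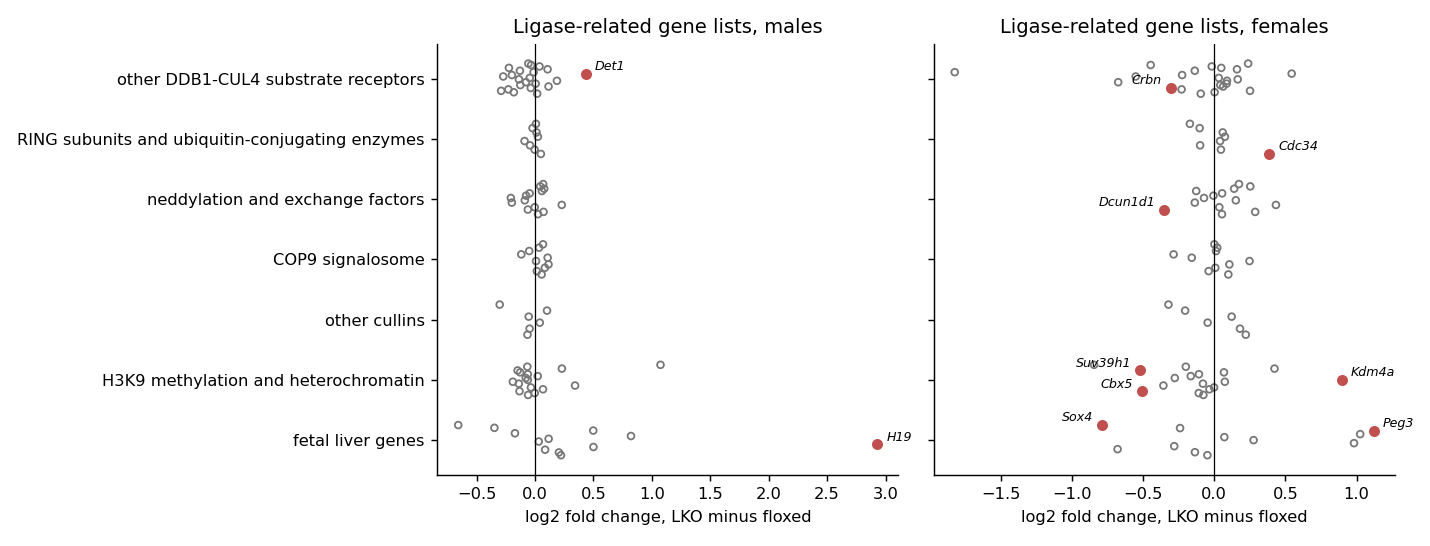
Log2 fold change, LKO minus floxed, of each tested gene of 7 lists around the ligase and its described liver targets, in males (left) and females (right). Filled, labelled points mark genes called at an edgeR adjusted p under 0.05, 2 of 89 in males and 8 of 88 in females.

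Genes of histone H3 lysine 9 methylation and heterochromatin were listed because of the described role of DCAF8 there. In LKO males 0 of 17 were called (2 at an unadjusted p under 0.05 by edgeR, 0 called by limma-voom), and Uhrf1, which reads methylated DNA and histone H3, had the smallest p, with a log2 change of 1.07 (SE 0.23, edgeR adjusted p = 0.0663; called by DESeq2, adjusted p = 0.00376). Next was Kdm3b, a demethylase, at -0.19 (SE 0.06, edgeR adjusted p = 0.207). In LKO females 3 of 17 were called, 1 higher and 2 lower. Cbx5, which encodes the heterochromatin protein HP1 alpha, measured 21.3, 20.4, 21.6 and 19.4 CPM in female LKO 5 to 8, against 26.8, 29.1, 29.0 and 32.6 CPM in female floxed 1 to 4. The groups did not overlap, and the log2 fold change was -0.51 (SE 0.08, edgeR adjusted p = 0.00805). Suv39h1, a methyltransferase for this lysine, averaged 5.82 ± 0.335 CPM in female LKO and 8.34 ± 0.913 CPM in female floxed livers (SD, n = 4 each), a log2 change of -0.52 (SE 0.11, edgeR adjusted p = 0.0230).

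Kdm4a, a demethylase that removes the same mark, rose in LKO females. It measured 65.7, 60.9, 49.98 and 87.8 CPM in female LKO 5 to 8, against 36.4, 31.1, 32.0 and 42.4 CPM in female floxed 1 to 4. All LKO females were above all floxed females, with a log2 change of 0.90 (SE 0.17, edgeR adjusted p = 0.0141). In males it averaged 30.8 ± 2.75 CPM in LKO and 32.1 ± 3.87 CPM in floxed livers (SD, n = 4 each), and the difference of the effects was 0.96 (SE 0.20, edgeR adjusted p = 0.0158). That difference was not called without male floxed 1 and 2 together (0.81, edgeR adjusted p = 0.0923). The female calls of Cbx5 and Kdm4a held without any 1 library, with edgeR adjusted p up to 0.0280 and 0.0497. That of Suv39h1 was lost without LKO 5, 6 or 8 or floxed 1 or 2 (edgeR adjusted p up to 0.0754). The median over the 17 genes was -0.06 in males and -0.11 in females.

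Fetal liver genes were listed because the ligase with DCAF8 has been described as silencing them. Of 18 listed genes 12 were tested in males and 11 in females, and 1 and 2 of them were called. H19, an imprinted RNA abundant in fetal liver, measured 0.639, 5.98, 4.67 and 6.51 CPM in male LKO 5 to 8, against 0.458, 0.646, 0.652 and 0.570 CPM in male floxed 1 to 4. Male LKO 6, 7 and 8 stood well above the floxed males, while male LKO 5 lay within their range. The log2 fold change was 2.93 (SE 0.58, edgeR adjusted p = 0.0441). The call was lost without any 1 male library other than LKO 5 (edgeR adjusted p up to 0.120), without male floxed 1 and 2 together (0.142), with robust dispersion (0.107) and with limma-voom (0.294). In females H19 averaged 1.40 ± 0.461 CPM in LKO and 0.703 ± 0.263 CPM in floxed livers (SD, n = 4 each). Its log2 change there was 0.98, not called by edgeR but called by DESeq2 (adjusted p = 0.0475). Afp, also listed, had log2 changes of 0.22 in males and -0.05 in females and was not called.

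Peg3, an imprinted zinc finger gene, rose in LKO females. It measured 31.0, 30.3, 26.5 and 38.6 CPM in female LKO 5 to 8, against 12.3, 14.7, 13.98 and 17.0 CPM in female floxed 1 to 4. The groups did not overlap, and the log2 fold change was 1.12 (SE 0.13, edgeR adjusted p = 0.00367), called without any 1 library (edgeR adjusted p up to 0.0172). In males Peg3 averaged 6.56 ± 0.826 CPM in LKO and 7.39 ± 1.16 CPM in floxed livers (SD, n = 4 each), and the difference of the effects was 1.30 (SE 0.20, edgeR adjusted p = 0.00390). Sox4, a developmental transcription factor, averaged 2.12 ± 0.608 CPM in female LKO and 3.67 ± 0.460 CPM in female floxed livers (SD, n = 4 each), a log2 change of -0.79 (SE 0.21, edgeR adjusted p = 0.0461), lost without any 1 of 7 female libraries, the exception being LKO 7 (edgeR adjusted p up to 0.108), and in the 16-library fit (0.0605). The fetal list thus had 1 gene higher and none lower in males, and 1 higher and 1 lower in females, with medians of 0.16 and -0.05.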

How the data were processed

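Poly(A) libraries of 16 mouse livers were made with a directional kit by Novogene after TRIzol extraction, per the labels' protocols. For each sex the authors deposited a table of whole-number counts per Ensembl gene, used as given, on build mm10 per the submitters' processing notes. The sources used here do not give the aligner, the counter or its strand setting. The tables held 24623 identifiers in males and 24840 in females, 23167 of them in both, and symbols came from the GENCODE annotation of that build. Identifiers without a symbol held 0.0289% of counts in males and 0.0349% in females.

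Each sex was fitted alone, and all 16 libraries were fitted together for contrasts between the sexes. Low genes were left out by filterByExpr with a minimum count of 10 and a minimum total of 15. TMM factors scaled the libraries, and the test was the two-sided quasi-likelihood test of edgeR 4.0.16 in R 4.3.3, with Benjamini-Hochberg adjustment over all genes and a threshold of 0.05. Standard errors are the size of the log2 fold change over the root of F. The 4 mice a group limit the precision, and counting error was not separated from the spread between mice. Counting error weighs more for genes with few counts. Over the 16 libraries Uhrf1 had 7 to 75 counts, H19 15 to 237 and Dtl 4 to 57. Replicates of a group are separate mice, and no pair of libraries agreed within sampling noise (chi-square per degree of freedom 12.7 or more). Matches of profiles used log2 CPM with a prior count of 2, among genes with a mean of at least 1. Start regions came from RefSeq, GRCm38.p6, which held all 9 genes.

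Named genes were the 9 ligase genes, Matr3, the 4 nearest tested genes on each side of Dcaf8, the 5 most similar profiles, and, for each list, up to 4 called genes or else those with the smallest p. Predicted gene models, with symbols of the Gm or Rik kind, were left out of the neighbours and the profiles. Of the genes so selected, 2 are not reported here. The 9 genes and all lists were chosen with earlier results of these data known. Alternatives were DESeq2 1.42.0, limma-voom (limma 3.58.1), 3 other scalings, robust dispersion, no filter on low genes or one at 1 CPM in 4 libraries, the 16-library fit, a block for the replicate number, and leaving out each library, male floxed 1 and 2, or female floxed 4 and female LKO 7. The procedure was also run on simulated counts with the same dispersion for all genes, a simpler setting than these data, and nothing is read from it here.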

Additional observations from a re-analysis of the deposited data

Results flagged for a closer look

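Libraries apart from the other 3 of their group were looked for in 231 groups of 4, over 58 genes, by the gap to the nearest value as a share of the group's range. Of these 12 stood apart, and chance alone flags about 1 group in 20. Among the ligase genes, Cul4b was at 22.9 CPM in male LKO 6 and at 18.4 to 18.5 CPM in the other LKO males, and Dcaf5 was at 45.3 CPM in male LKO 7 and at 38.4 to 39.4 CPM in the others. H19 was at 0.710 CPM in female LKO 5 and at 1.59 to 1.70 CPM in the other LKO females.

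Of the COP9 subunits, Cops6 was at 178 CPM in female LKO 8 (others 144 to 150.0), Cops9 at 44.9 CPM in male LKO 5 (others 40.4 to 41.0) and Cops8 at 24.0 CPM in female floxed 4 (others 27.9 to 28.4). Among enzymes and neddylation factors, Ube2d1 was at 10.2 CPM in female floxed 4 (others 11.8 to 12.0), Ube2r2 at 134.7 CPM in male floxed 3 (others 124 to 125) and Dcun1d4 at 38.4 CPM in male floxed 4 (others 54.1 to 56.2). Among the neighbours of Dcaf8, Vangl2 was at 0.477 CPM in female LKO 7 (others 0.244 to 0.278). Ncstn was at 46.8 CPM in male LKO 5 (others 51.1 to 51.5) and at 44.9 CPM in male floxed 4 (others 49.5 to 50.3).

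The LKO effect differed between females and males for 4 of the genes named, by the interaction term of edgeR. The genes were named with the LKO effects known, so these tests are not independent of that choice. The female minus male differences of the log2 fold changes were -0.40 for Cul4a (SE 0.09, adjusted p = 0.0196), 0.96 for Kdm4a (SE 0.20, adjusted p = 0.0158), 1.30 for Peg3 (SE 0.20, adjusted p = 0.00390) and -1.92 for Uhrf1 (SE 0.52, adjusted p = 0.0483). Uhrf1 averaged 0.751 ± 0.418 CPM in female LKO and 1.35 ± 0.565 CPM in female floxed livers, and 1.87 ± 0.481 CPM in male LKO and 0.887 ± 0.0984 CPM in male floxed livers (SD, n = 4 each). Its difference lost its call without any 1 of 12 of the 16 libraries (edgeR adjusted p up to 0.0873), without male floxed 1 and 2 together (0.121) and without female floxed 4 and female LKO 7 together (0.0733), and limma-voom gave an adjusted p of 0.0504. Without male floxed 1 and 2 together the differences of Cul4a (edgeR adjusted p = 0.0960) and Kdm4a (0.0923) were not called either.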

How the results depend on the processing

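The log2 fold change of Dcaf8 lay between -1.23 and -1.18 in males and between -1.29 and -1.19 in females over all alternatives, the lowest female value coming with library totals. Cul4a stayed positive in males (0.11 to 0.18) and negative in females (-0.32 to -0.21), and no called result changed direction. The sex calls of Dcaf6 and Dcaf7 held under all 27 alternatives.

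Counts moved more, and the causes were not tested. DESeq2 called 524 genes in males (edgeR 160), 2427 in females (edgeR 1433) and 1353 for the difference between the sexes' effects (edgeR 713), and 4 list genes in males and 13 in females (edgeR 2 and 8). In males 1 list gene was called with limma-voom, library totals, the filter of 1 CPM, robust dispersion or the 16-library fit. Library totals gave 4 ligase genes without overlap between floxed sexes, and moved the higher and lower calls to 376 and 1079 over both sexes (otherwise 653 and 726), to 203 and 698 for the difference (318 and 395), and to 2460 and 1217 between floxed females and males (1826 and 1872, with upper quartile scaling 2237 and 1483). Without male floxed 1 and 2, 0 list genes were called in males and 243 genes for the difference. Without female floxed 4 and LKO 7 the counts were 3028 in females, 13 list genes, 2902 over both sexes and 2030 for the difference. The 16-library fit gave 97 in males, 2854 in females and 16 list genes in females.

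Leaving out 1 library gave 69 to 179 genes in males, 396 to 2300 in females, 788 to 2252 over both sexes, 407 to 1435 for the difference and 2874 to 3907 between floxed sexes, 0 to 1 list genes in males, 3 to 10 in females, and 2 to 3 ligase genes without overlap. The highest gene counts came without male floxed 4 in males and without female LKO 7 in the other contrasts, and the lowest without male LKO 8 in males and female floxed 1 in females.

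Same-numbered mice of the sexes did not deviate together (r -0.119 to 0.130, 2 of 8 libraries closest to their own number). With a replicate block 468 genes were called for the difference and 2937 between floxed sexes, and Cul4a (-0.41, adjusted p = 0.0682) and Uhrf1 (-1.93, adjusted p = 0.0730) lost their calls while Dtl gained one (-1.78, adjusted p = 0.0498).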
